A study of Arabidopsis thaliana with 9 samples.

Results

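The NPF genes, also called NRT1/PTR genes, are the plant members of the peptide transporter family, and 53 of them were described here in seedlings of Arabidopsis thaliana. The members were taken by gene identifier, from NPF1.1 (AT3G16180) to NPF8.5 (AT1G62200), among 32678 gene rows of the count tables. All 53 had a row, and 42 passed the filter on low counts that left 20288 genes for testing. RNA sequencing covered whole 7-day-old seedlings in 3 groups of 3 libraries each, with about 10 seedlings pooled per extraction. The icpk KNO3 group was an inducible cpk10,30,32 triple mutant that expressed CPK10(M141G)-DHA and received 10 mM KNO3 for 15 min. The WT KNO3 group was the wild type with 10 mM KNO3 for 15 min, and the WT KCl group was the wild type with 10 mM KCl for 15 min. All groups had grown on 2.5 mM ammonium succinate as the only nitrogen source. The protocol describes 10 µM of the inhibitor 3MBiP for 2 min to block CPK10(M141G), but the labels do not say which libraries received it, and the promoter of the transgene is not given in the sources used here. No icpk seedlings with KCl were analysed here, so a genotype difference that was present before nitrate, a changed response to nitrate and an effect of the inhibitor cannot be told apart.

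NPF proteins are membrane carriers that mostly use the proton gradient to move their substrate. The family was first known for nitrate and for small peptides, and members have since been shown to carry chloride, glucosinolates and hormones. In the seedling they take nitrate up at the root surface, and load it into and retrieve it from the xylem. They also export it from vacuoles, store it in petioles and move it in the phloem. CPK10, CPK30 and CPK32 are calcium-dependent protein kinases that act in the early transcript response to nitrate. The study compared the wild type with and without nitrate and the icpk line with the wild type under nitrate.

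The mutated kinase genes and depth were as follows. CPK30 and CPK32 were lower in icpk KNO3 than in WT KNO3 by log2 fold changes of -3.02 ± 0.13 and -3.27 ± 0.23 (SE), and CPK10 was higher, at 0.83 ± 0.12. The libraries held 5987352 to 19564785 reads counted to genes, of which 0.179% to 0.240% fell in the 53 NPF genes. In WT KCl replicate 3, the shallowest, 80.5% of all records were set aside as not unique, against 23.8% to 58.0% in the other libraries. Reads that could come from several places touched the NPF genes little: stretches of 50 bases found elsewhere in the genome made up at most 2.95% of the exons of any NPF gene, and 42 of the 53 had none.

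NPF6.3 (AT1G12110, NRT1.1), the dual-affinity nitrate transporter that also senses nitrate, had the highest level of the family in every group. Per kb of exon, its level was 299 CPM in icpk KNO3, 324 CPM in WT KNO3 and 249 CPM in WT KCl, as means of 3 libraries in CPM, the reads of a gene scaled by library size. It made up 31.6% to 35.2% of the summed NPF level in icpk KNO3, 33.5% to 34.9% in WT KNO3 and 24.9% to 28.6% in WT KCl. NPF7.3 (AT1G32450, NRT1.5), which loads nitrate into the root xylem, ranked 2 in each group. Its level was 108 CPM per kb in icpk KNO3, 82.9 CPM per kb in WT KNO3 and 110 CPM per kb in WT KCl. The glucosinolate transporter NPF2.10 (GTR1) ranked 3 in all groups, with 62.4, 77.7 and 108 CPM per kb in icpk KNO3, WT KNO3 and WT KCl. The next places changed between groups. NPF2.13 (AT1G69870, NRT1.7), which loads nitrate into the phloem of older leaves, ranked 4 in icpk KNO3 and in WT KNO3, and 6 in WT KCl. The summed level of all NPF genes was 1843, 1957 and 2103 CPM in icpk KNO3, 1942, 2361 and 1994 CPM in WT KNO3, and 1949, 2058 and 2106 CPM in WT KCl. These sums overlapped between all groups.

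**Figure D1:**
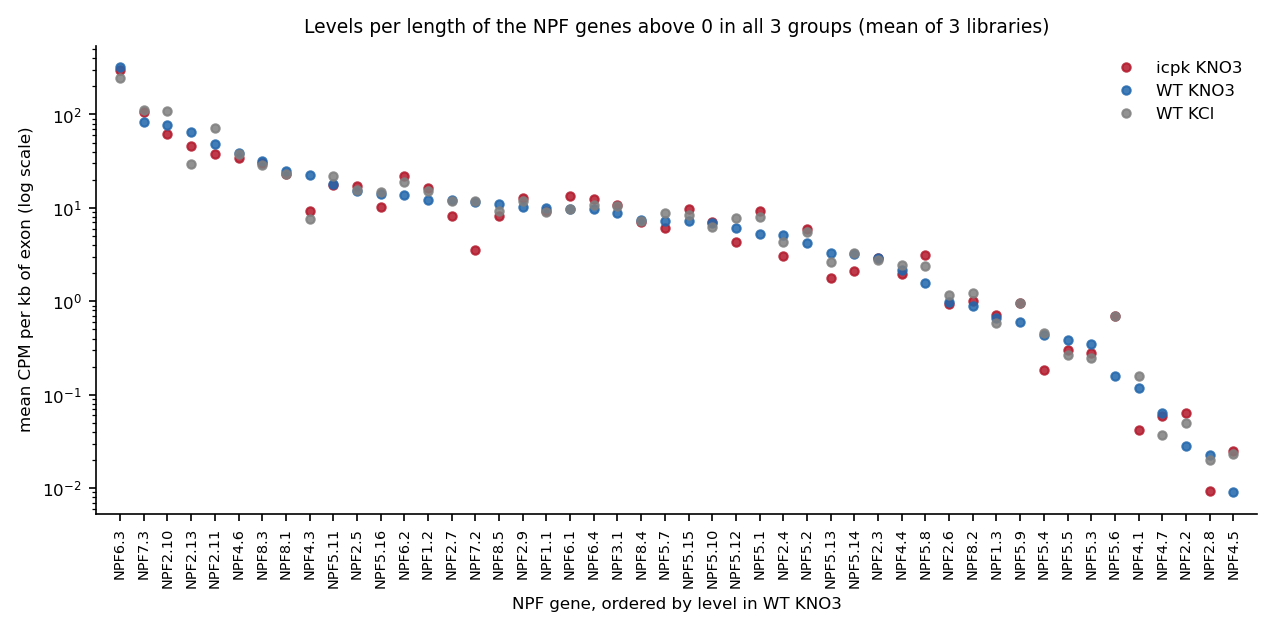
Mean level of 3 libraries per group in CPM per kb of exon, on a log axis, for the 48 NPF genes above 0 in all 3 groups, ordered by WT KNO3. NPF6.3 stands alone at the top in every group, and the genes at the right end rest on few reads.

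The 11 members left untested had at most 69 counts over all libraries. NPF5.3, a close relative of the peptide transporter NPF5.2, had the most, with 22 counts in icpk KNO3, 30 in WT KNO3 and 17 in WT KCl. NPF2.12 (NRT1.6), which brings nitrate to the developing seed, had 2 counts, both in 1 WT KCl library. NPF4.2 and NPF7.1 had no count in any of the 9 libraries, which allows a level of up to 0.0224 CPM over all of them. The others were NPF2.1, NPF2.2, NPF2.8, NPF2.14, NPF4.1, NPF4.5 and NPF4.7, at no more than 0.467 CPM in any library.

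With nitrate, 2 NPF genes rose and 2 fell in the wild type, and 38 of the 42 tested did not pass the test. NPF4.3 and NPF2.13 rose, and NPF5.1 and NPF5.6 fell. Among all genes tested, 3.56% were called higher and 2.39% lower in the same comparison. The median log2 fold change was -0.10 over the NPF genes and -0.02 over all genes tested. A call means an adjusted p below 0.05 over all 20288 genes in edgeR's quasi-likelihood test. The labels do not state whether replicates were grown apart, so p-values measure only the spread between these samples.

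NPF4.3 (AT1G59740), a member whose substrate in the seedling is not settled, rose the most. It had 45.6, 44.5 and 59.9 CPM in WT KNO3, against 17.4, 16.6 and 16.9 CPM in WT KCl. Every WT KNO3 library was well above every WT KCl library, and the log2 fold change was 1.56 ± 0.15 (SE, adjusted p = 0.000124). NPF2.13 had 157, 145 and 164 CPM in WT KNO3, against 68.4, 75.4 and 69.3 CPM in WT KCl. Its groups lay equally clear of each other, with a log2 fold change of 1.13 ± 0.10 (adjusted p = 4.2e-05). These calls held under all 16 alternatives run.

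The bases before the annotated start of these genes, and of NPF7.2 described further on, are shown because, beside the scarce NPF5.6, these are the members with a called change of at least 1 on the log2 scale. They are the 250 bases upstream of each gene in the RefSeq assembly TAIR10.1, read in the direction of the gene. These short motifs were searched on both strands: GACNCTT, a part of the nitrate-responsive element bound by NIN-like proteins; TGACG, the core bound by TGA factors; and CACGTG, the G-box. Matches are in capitals.
NPF4.3, chr1:21967736-21967985, plus strand: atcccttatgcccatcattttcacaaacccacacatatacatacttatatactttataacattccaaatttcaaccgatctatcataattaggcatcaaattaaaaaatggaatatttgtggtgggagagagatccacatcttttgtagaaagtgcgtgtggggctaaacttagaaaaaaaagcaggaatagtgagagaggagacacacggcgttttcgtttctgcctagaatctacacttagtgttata
NPF2.13, chr1:26315537-26315786, plus strand: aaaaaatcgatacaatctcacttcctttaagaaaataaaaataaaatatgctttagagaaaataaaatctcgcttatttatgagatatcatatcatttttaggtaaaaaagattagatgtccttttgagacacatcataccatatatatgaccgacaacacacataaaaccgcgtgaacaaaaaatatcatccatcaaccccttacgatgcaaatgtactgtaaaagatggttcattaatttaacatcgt
NPF7.2, chr4:11519806-11520055, minus strand: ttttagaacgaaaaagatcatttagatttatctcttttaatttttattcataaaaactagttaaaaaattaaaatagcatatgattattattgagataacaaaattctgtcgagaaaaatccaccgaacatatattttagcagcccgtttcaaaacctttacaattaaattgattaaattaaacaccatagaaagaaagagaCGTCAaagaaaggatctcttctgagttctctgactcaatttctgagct
None of the motifs was in the NPF4.3 or NPF2.13 window, and the NPF7.2 window held TGACG, read on its opposite strand. Over the windows of all 27443 protein-coding genes, 7.18% held GACNCTT, 18.6% TGACG and 6.49% CACGTG. Among the 53 NPF windows, 5 held GACNCTT, 7 TGACG and 3 CACGTG. A match is a stretch of letters only, and elements farther away or inside the gene were not searched.

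NPF5.1 (AT2G40460) fell with nitrate. It had 11.4, 15.1 and 12.7 CPM in WT KNO3, against 21.2, 17.6 and 20.7 CPM in WT KCl. The groups did not overlap and the log2 fold change was -0.60 ± 0.13 (adjusted p = 0.023). The call was lost without WT KNO3 replicate 1 (adjusted p = 0.0983) or 3 (0.0792) and without WT KCl replicate 1 (0.0955) or 3 (0.0657). NPF5.6 (AT2G37900) was scarce, with 8, 10 and 1 counts in WT KNO3, against 32, 20 and 12 counts in WT KCl. In CPM these were 0.517, 0.574 and 0.0659 in WT KNO3, against 1.56, 1.34 and 2.2 in WT KCl. The groups did not overlap. The log2 fold change was -2.01 ± 0.47 (adjusted p = 0.0313), and the call was lost without WT KNO3 replicate 1 (0.0783) and without WT KCl replicate 1 (0.0914), 2 (0.0703) or 3 (0.0735).

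NPF6.3 and NPF4.6, which take nitrate up at the root, showed no called change with nitrate, nor did NPF6.4. NPF6.3 had 651, 795 and 695 CPM in WT KNO3, against 557, 513 and 572 CPM in WT KCl. All WT KNO3 libraries were above all WT KCl libraries, but the log2 fold change of 0.38 ± 0.13 did not pass (adjusted p = 0.127). DESeq2 called it higher (adjusted p = 0.02), as did the authors' deposited table (log2 fold change 0.38, adjusted p = 0.0112). NPF4.6 (NRT1.2), the low-affinity nitrate carrier that also imports abscisic acid, had 98.8, 80.6 and 105 CPM in WT KNO3, against 89.2, 92.7 and 93.8 CPM in WT KCl. Its groups overlapped, with a log2 fold change of 0.04 ± 0.12. NPF6.4 (NRT1.3) was at -0.14 ± 0.14.

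Among the members that move nitrate between root and shoot, none was called with nitrate. NPF7.3 varied most between replicates. It had 162, 311 and 78.3 CPM in WT KNO3, against 257, 226 and 251 CPM in WT KCl. The WT KNO3 libraries lay on both sides of all WT KCl libraries, and the log2 fold change was -0.41 ± 0.36 (adjusted p = 0.57). Without WT KNO3 replicate 2 it was -1.03 (adjusted p = 0.0304). NPF7.2 (AT4G21680, NRT1.8), which retrieves nitrate from the xylem, was at -0.01 ± 0.29, NPF2.7 (AT3G45650, NAXT1), which releases nitrate from the root, at 0.01 ± 0.11, and NPF2.9 (NRT1.9), a root phloem nitrate carrier, at -0.19 ± 0.17. In the shoot, NPF6.2 (NRT1.4), which stores nitrate in the petiole, was at -0.45 ± 0.18 (adjusted p = 0.187), and passed without icpk KNO3 replicate 3, a library outside this comparison (0.0291). The leaf phloem carriers NPF1.1 and NPF1.2 were at 0.14 ± 0.18 and -0.29 ± 0.31.

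The glucosinolate transporters were lower with nitrate without passing. NPF2.11 (AT5G62680, GTR2) had 95.9, 146 and 102 CPM in WT KNO3, against 138, 188 and 184 CPM in WT KCl. WT KNO3 replicate 2 reached above the lowest WT KCl library, and the log2 fold change was -0.57 ± 0.17 (adjusted p = 0.0796). It passed without that library (-0.78, adjusted p = 0.00746) and with DESeq2 (0.0288), and the authors' deposited table calls it lower (-0.52, 0.017). NPF2.10 was at -0.48 ± 0.29, with 143, 240 and 141 CPM in WT KNO3 and 173, 310 and 247 CPM in WT KCl. Exons of other genes cover 17% of the NPF2.10 exons, which makes part of its reads uncertain. The peptide transporters NPF8.1 and NPF8.3 stayed within 0.16 of no change on the log2 scale, at 0.09 ± 0.11 and 0.16 ± 0.10.

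In icpk KNO3 against WT KNO3, 5 NPF genes were higher and 8 lower, and 29 of the 42 did not pass. The higher ones were NPF5.1, NPF5.6, NPF5.15, NPF6.1 and NPF6.2, and the lower ones NPF2.4, NPF2.7, NPF2.13, NPF4.3, NPF5.13, NPF5.14, NPF7.2 and NPF8.5. The share called among all genes tested was 11.3% higher and 11.4% lower. The median log2 fold change was -0.05 over the NPF genes and 0.01 over all genes tested. The groups did not overlap for 20 of the 42 NPF genes, and for 39.6% of all genes tested.

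**Figure D2:**
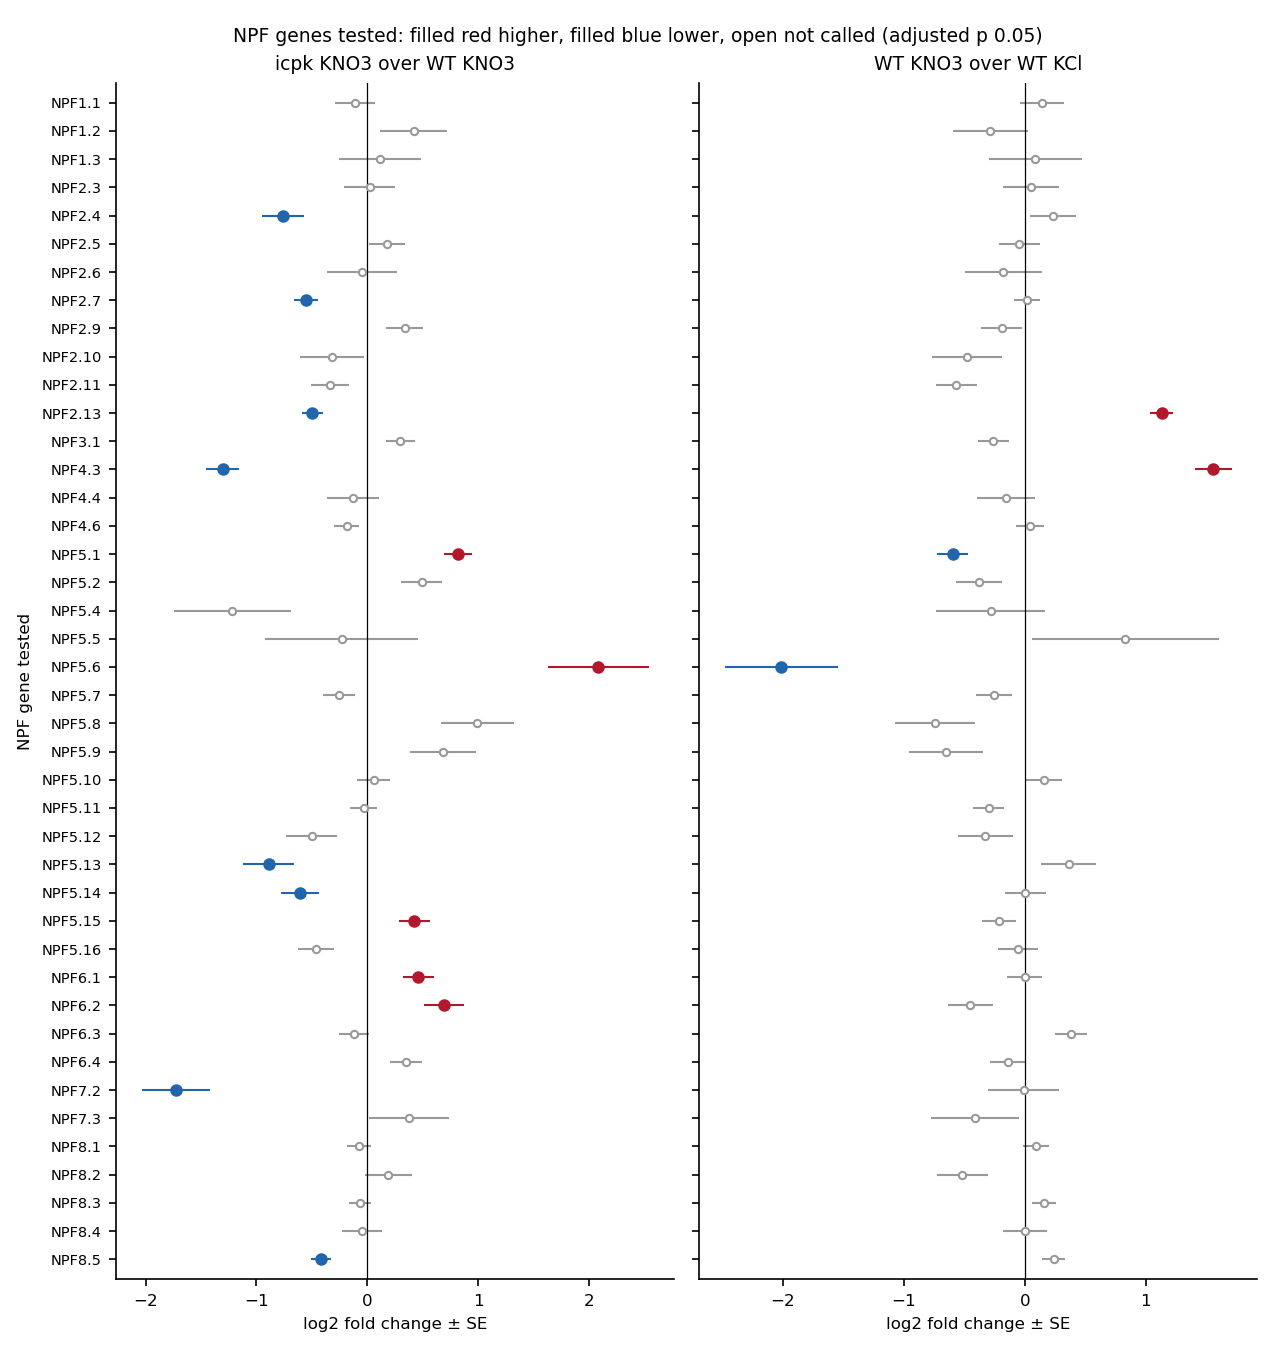
Log2 fold change with its standard error for the 42 NPF genes tested, icpk KNO3 over WT KNO3 on the left and WT KNO3 over WT KCl on the right; filled points passed adjusted p 0.05. There are 13 filled points on the left and 4 on the right, and both panels share the WT KNO3 libraries.

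NPF4.3, NPF2.13, NPF5.1 and NPF5.6, which were called with nitrate in the wild type, were called in icpk too. Both comparisons use the WT KNO3 libraries, so a gene's values in them are not independent, and opposite signs carry no weight of their own. NPF4.3 had 24.7, 18.4 and 17.8 CPM in icpk KNO3, against 45.6, 44.5 and 59.9 CPM in WT KNO3. All icpk libraries lay below all WT KNO3 libraries, and the log2 fold change was -1.31 ± 0.15 (adjusted p = 0.000758). NPF2.13 had 116, 114 and 101 CPM in icpk KNO3, against 157, 145 and 164 CPM in WT KNO3, a smaller difference of -0.50 ± 0.09 (adjusted p = 0.00575) with no overlap. NPF5.1 had 23.2, 24.5 and 21.6 CPM in icpk KNO3, against 11.4, 15.1 and 12.7 CPM in WT KNO3, at 0.82 ± 0.13 (adjusted p = 0.00237). NPF5.6 had 17, 30 and 29 counts in icpk KNO3, against 8, 10 and 1 counts in WT KNO3, at 2.09 ± 0.46 (adjusted p = 0.0102). The calls of NPF4.3, NPF5.1 and NPF5.6 held under all 17 alternatives of this comparison.

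NPF7.2 was lower in icpk KNO3 though no change with nitrate had been called in the wild type. It had 8.95, 9.15 and 4.91 CPM in icpk KNO3, against 28.7, 16.2 and 31.5 CPM in WT KNO3. The icpk libraries were all below the lowest WT KNO3 library, and the log2 fold change was -1.73 ± 0.31 (adjusted p = 0.00439). NPF2.7 had 16.9, 19.3 and 20.8 CPM in icpk KNO3, against 26.3, 26.5 and 30.7 CPM in WT KNO3. The groups were apart, at -0.55 ± 0.11 (adjusted p = 0.00633), and the call held under all 17 alternatives. NPF2.4 (AT3G45700), which releases chloride towards the root xylem, had 4.87, 5.66 and 6.71 CPM in icpk KNO3, against 8.07, 8.95 and 12.3 CPM in WT KNO3. It was at -0.76 ± 0.19 (adjusted p = 0.0181), and not called without icpk KNO3 replicate 1 (0.0525) or WT KNO3 replicate 3 (0.0623).

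Of the shoot and storage members, NPF6.2 was higher in icpk KNO3. It had 43.1, 45.3 and 72.9 CPM in icpk KNO3, against 29.9, 35.5 and 34.6 CPM in WT KNO3. Replicate 3 of icpk KNO3 stood above the other 2, and the log2 fold change was 0.69 ± 0.18 (adjusted p = 0.0223), or 0.40 without that library (0.0404). Without WT KNO3 replicate 1 or 3 the gene was not called (0.0866 and 0.052). NPF6.1 (AT5G13400) had 24.7, 30.5 and 34.2 CPM in icpk KNO3, against 18.6, 22.8 and 23.7 CPM in WT KNO3, at 0.46 ± 0.14 (adjusted p = 0.0391). Its call was lost when icpk KNO3 replicate 2 (0.089) or 3 (0.132), WT KNO3 replicate 1 (0.142), 2 (0.0559) or 3 (0.0534), or WT KCl replicate 3 (0.0568) was left out.

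NPF8.5 (AT1G62200), of the peptide transporter subfamily, had 24.2, 28.6 and 24.7 CPM in icpk KNO3, against 34.9, 34.0 and 34.7 CPM in WT KNO3, at -0.42 ± 0.09 (adjusted p = 0.011). Other genes' exons cover 34.0% of its exons, and with no strand in these libraries the source of reads there is uncertain. NPF5.13 (AT1G72125) had 3.65, 3.97 and 2.42 CPM in icpk KNO3, against 5.68, 5.57 and 7.45 CPM in WT KNO3, at -0.89 ± 0.23 (adjusted p = 0.0204), and was not called without replicate 3 of icpk KNO3 (0.0603) or of WT KNO3 (0.0721). NPF5.14 (AT1G72120) had 3.22, 4.71 and 4.15 CPM in icpk KNO3, against 5.62, 6.02 and 6.92 CPM in WT KNO3, at -0.60 ± 0.17 (adjusted p = 0.0296). Leaving out icpk KNO3 replicate 1 (0.0767) or 3 (0.0617), or WT KNO3 replicate 1 (0.0539), 2 (0.0502) or 3 (0.0975), ended that call. NPF5.15 (AT1G22570) had 22.9, 19.3 and 22.6 CPM in icpk KNO3, against 16, 17 and 15 CPM in WT KNO3, at 0.43 ± 0.14. Its adjusted p of 0.0487 was the closest to the threshold, and it was 0.0629 with the replicate number as a block. Leaving out icpk KNO3 replicate 1 (0.15) or 3 (0.131), WT KNO3 replicate 1 (0.121), 2 (0.0616) or 3 (0.137), or WT KCl replicate 3 (0.0691) also ended it. The authors' deposited table calls 3 of the 5 higher and 5 of the 8 lower genes of icpk KNO3 against WT KNO3 in the same direction. The authors' deposited table does not call NPF7.2 (log2 fold change -0.78, adjusted p = 0.0598), NPF2.4 (adjusted p = 0.0849), NPF5.14 (0.0607), NPF5.15 (0.101) or NPF6.1 (0.0607).

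**Figure D3:**
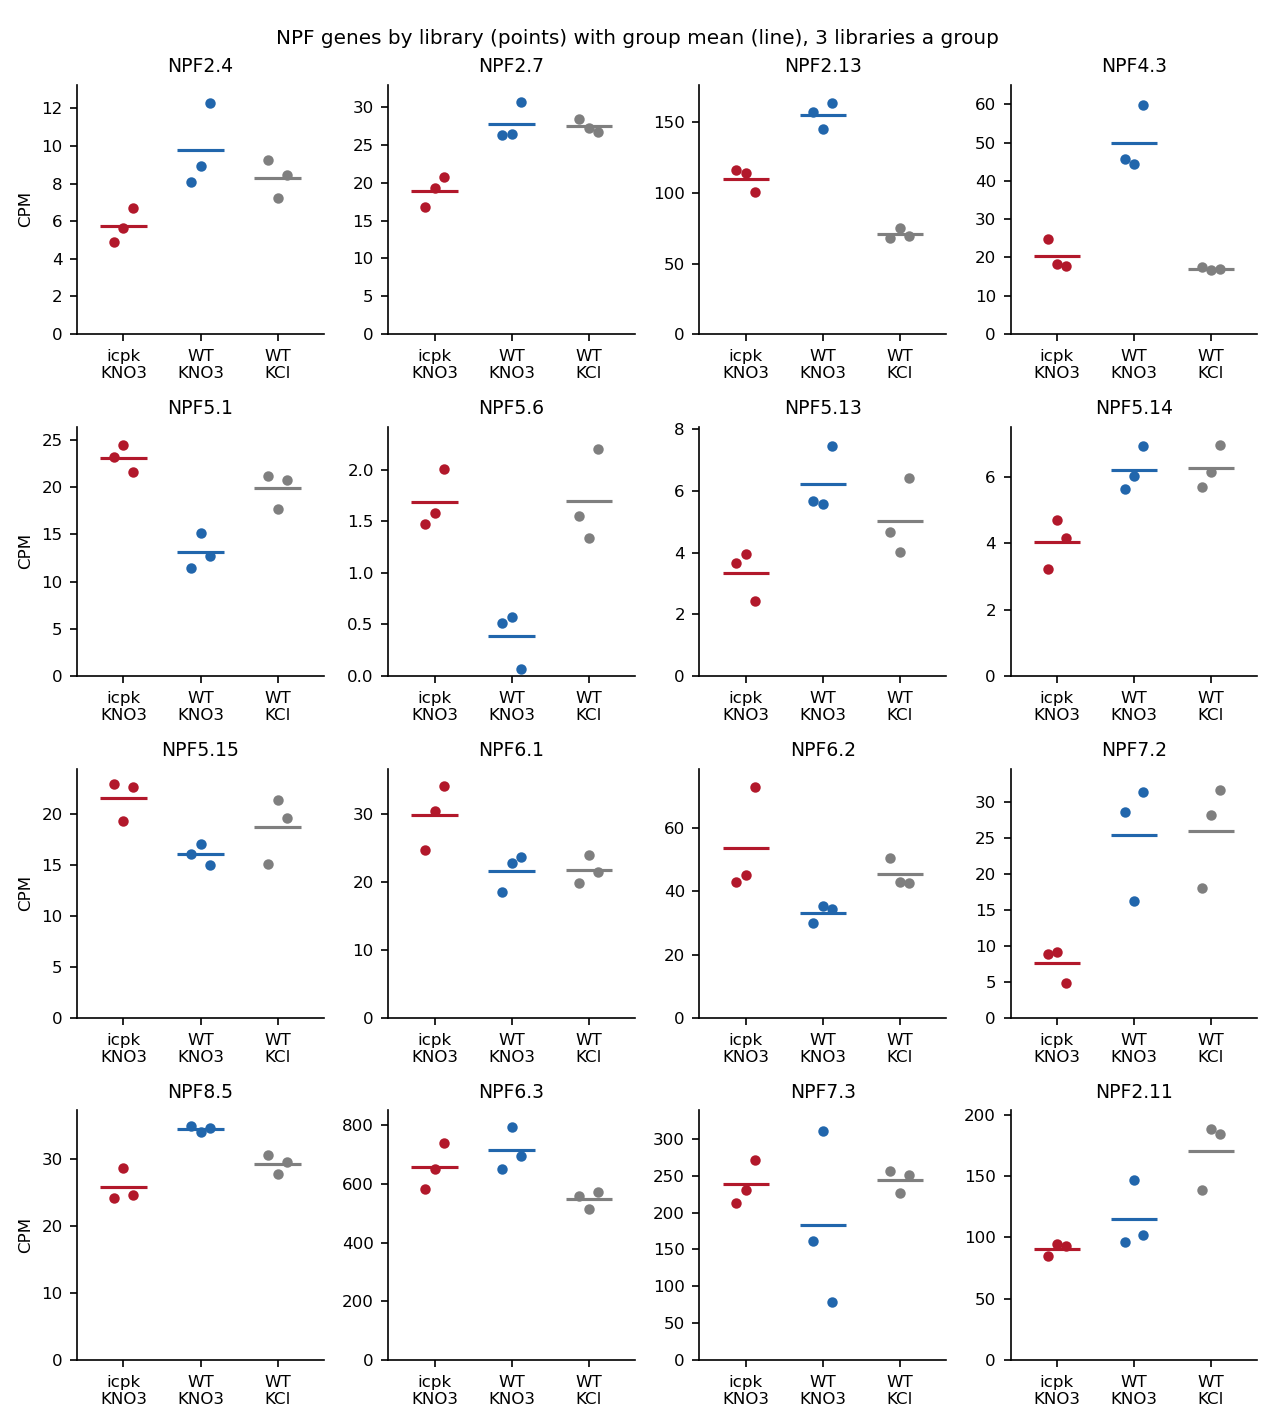
CPM in each of 3 libraries per group (points) and group mean (line) for the 13 NPF genes called in either comparison and for NPF6.3, NPF7.3 and NPF2.11. NPF4.3 is highest in WT KNO3 and NPF7.2 lowest in icpk KNO3, and the NPF7.3 libraries of WT KNO3 spread from 78.3 to 311 CPM.

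The most abundant members, NPF6.3, NPF7.3 and NPF2.10, were not called between icpk KNO3 and WT KNO3. NPF6.3 had 583, 650 and 740 CPM in icpk KNO3, against 651, 795 and 695 CPM in WT KNO3, with overlap and a log2 fold change of -0.12 ± 0.13. NPF7.3 had 213, 231 and 271 CPM in icpk KNO3, all inside the range of WT KNO3, and was at 0.38 ± 0.36 (adjusted p = 0.494). Without WT KNO3 replicate 2 it was 0.99 and called (0.0205). NPF4.6 was at -0.19 ± 0.12, NPF2.10 at -0.32 ± 0.29, NPF2.11 at -0.34 ± 0.17 and NPF6.4 at 0.35 ± 0.14, and NPF6.4 was called without WT KNO3 replicate 2 (0.0352). NPF1.1, NPF1.2 and NPF8.1 were at -0.11 ± 0.18, 0.42 ± 0.31 and -0.08 ± 0.11. NPF2.9 was at 0.34 ± 0.17 (adjusted p = 0.177); it is the gene next to CPK10, and exons of CPK10 cover 30.7% of its own, so its reads are uncertain in the line that expresses more CPK10. NPF5.8 (AT5G14940) was just short of a call, at 1.00 ± 0.33 (adjusted p = 0.0503), with 5.48, 6.61 and 6.99 CPM in icpk KNO3, against 3.04, 3.44 and 3.1 CPM in WT KNO3. DESeq2 called it (0.0234), and so does the authors' deposited table (0.0262).

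Against the wild type with KCl, icpk KNO3 seedlings had 1 NPF gene higher and 3 lower, where 3.15% of all genes tested were called higher and 3.84% lower. NPF2.13 was higher, with 116, 114 and 101 CPM in icpk KNO3, against 68.4, 75.4 and 69.3 CPM in WT KCl (log2 fold change 0.63 ± 0.10, adjusted p = 0.00302). It thus lay between the 2 wild-type groups with no overlap on either side. NPF4.3 was not called, at 0.25 ± 0.16 (adjusted p = 0.389), although its lowest icpk library, at 17.8 CPM, was above the highest WT KCl library, at 17.4 CPM. NPF5.1 and NPF5.6 were at 0.22 ± 0.13 and 0.07 ± 0.39. NPF7.2 was lower at -1.74 ± 0.31 (adjusted p = 0.00805), NPF2.11 at -0.90 ± 0.17 (0.0103) and NPF2.7 at -0.54 ± 0.11 (0.0142). NPF2.7 lost its call without WT KCl replicate 2 (0.0532).

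Several NPF genes lie in tandem, and neighbours did not always share a call. In all, 6 runs of adjacent NPF genes hold 19 members. In the run NPF5.14, NPF5.13, NPF5.11 and NPF5.12 on chromosome 1, the first 2 were lower in icpk KNO3, and their proteins, translated from the RefSeq coding sequences, are 86.5% identical. NPF5.11 and NPF5.12, which export nitrate from the vacuole, were at -0.03 ± 0.13 and -0.50 ± 0.23 and were not called. In the run NPF2.3, NPF2.2, NPF2.4, NPF2.5 and NPF2.1 on chromosome 3, NPF2.4 was lower while NPF2.5, 85% identical to it, was at 0.18 ± 0.17. NPF2.7 stands beside NPF2.6, 80.3% identical, which was at -0.05 ± 0.31 with 1.31 to 2.64 CPM in icpk KNO3 and 1.61 to 2.84 CPM in WT KNO3. Whether neighbours differ from each other in their change was not tested.

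Genes around the NPF family moved as follows. Of 18 tested nitrate transport genes outside the family, 6 rose with nitrate in the wild type and none fell, among them the NRT3.1 partner of high-affinity transport (2.94 ± 0.12) and the high-affinity carrier NRT2.1 (3.51 ± 0.19). In icpk KNO3, 6 were lower and 2 higher than in WT KNO3, with NRT3.1 at -0.86 ± 0.11 and NRT2.2 at -3.82 ± 0.45. The value of NRT2.2 was the lowest of the 18, whose median was -0.355. All 4 nitrate reduction genes tested rose with nitrate and all 4 were lower in icpk KNO3 than in WT KNO3. All 4 were also higher in icpk KNO3 than in WT KCl, with a median log2 fold change of 1.72. Of the 18 transport genes outside the family, 3 were higher and none lower in icpk KNO3 than in WT KCl. These comparisons share libraries, so opposite signs carry no weight of their own. Of 12 regulators and kinases that act on nitrate transporters, 7 rose with nitrate and 1 fell, and 4 were lower and none higher in icpk KNO3 than in WT KNO3. Against WT KCl, 4 of the 12 were higher and 2 lower in icpk KNO3. CIPK23, the kinase that phosphorylates NPF6.3, was at 0.44 ± 0.10 with nitrate and -0.50 ± 0.10 in icpk KNO3.

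In whole seedlings, a smaller share of a tissue and less RNA of a gene per cell cannot be told apart. Of 18 root markers, 2 were higher and none lower in WT KNO3 than in WT KCl, with a median log2 fold change of 0.29, and none was higher and 5 lower in icpk KNO3 than in WT KNO3, with a median of -0.32. Without BGLU23, the most abundant, which ran the other way, the summed root markers were 246, 294 and 283 CPM in icpk KNO3, 314, 312 and 377 CPM in WT KNO3, and 269, 251 and 292 CPM in WT KCl. With BGLU23 the sums were 3153 to 3970 CPM in icpk KNO3, 2603 to 3583 CPM in WT KNO3 and 3792 to 4403 CPM in WT KCl. Of 15 shoot photosynthesis markers, 3 were higher and none lower in icpk KNO3 than in WT KNO3 (median 0.53), and none was higher and 1 lower in WT KNO3 than in WT KCl (median -0.51). Their sums were 46362 to 70769 CPM in icpk KNO3, 32904 to 47616 CPM in WT KNO3 and 52297 to 63865 CPM in WT KCl, with WT KNO3 replicate 2 the highest of its group. No marker of either list was at 0 in any library. The part of these shifts in the level of any NPF gene, whether lower or higher in icpk KNO3, was not tested.

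**Figure D4:**
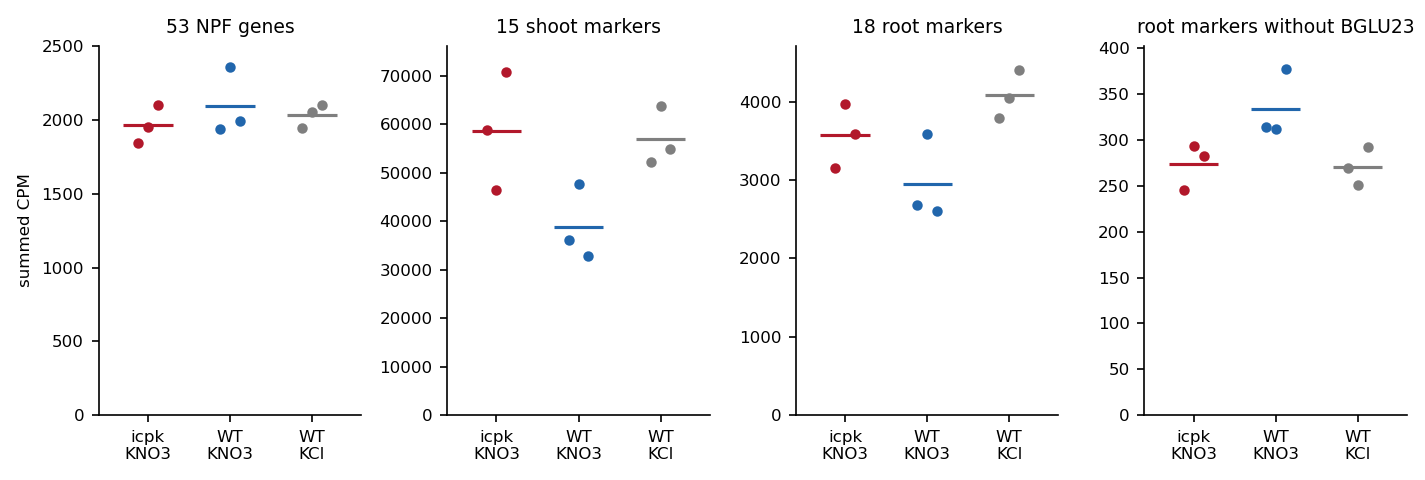
Summed CPM per library (points) with group mean (line) for the 53 NPF genes, 15 shoot photosynthesis markers, 18 root markers, and the root markers without BGLU23. The NPF sums overlap in all groups. On average, shoot markers and the 18 root markers are lowest in WT KNO3, while root markers without BGLU23 are highest there.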

How the data were processed

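Whole seedlings were profiled in 9 libraries of 3 groups. Per the labels' protocols, libraries were made with a TruSeq RNA v2 kit, which does not mark strand, and sequenced for 50 cycles. Per the submitters' processing notes, TopHat, HTSeq, DESeq2 and the build TAIR10 were used; versions and the counting mode are not stated there. The deposited counts are whole reads per gene, not normalized by the authors; 5 summary rows (26.7% to 84.3% of records) were left out. The authors' tables of log2 fold changes and adjusted p-values were used only where named.

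Counts were tested with edgeR 4.0.16 (R 4.3.3): TMM factors, filterByExpr with a minimum count of 10, all 9 libraries with a mean per group, quasi-likelihood F-test and Benjamini-Hochberg adjustment over 20288 genes. The biological coefficient of variation was 15.1%. Standard errors are the size of the log2 fold change over the square root of F, and CPM uses TMM-scaled library sizes. On simulated data for KNO3 against KCl in wild type over 20288 genes, 78% of changes of 1 on the log2 scale and 100% of changes of 2 were recovered, with 3.26% false calls. The changed genes were drawn only from those with a mean above 2 CPM, so the recovered shares do not cover scarce members such as NPF5.6. Each library was drawn independently, so deviations shared between libraries were not simulated.

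Named were all NPF genes called in either main comparison and 15 transporters of known role, among them NPF6.3. NPF5.8, NPF5.11, NPF5.12, NPF2.5, NPF2.6 and BGLU23 were singled out after their values were seen. The members and lists were chosen with earlier results of these data known. Exon lengths, neighbours, translated proteins and upstream windows came from the RefSeq assembly TAIR10.1, whose 5 nuclear chromosomes were taken to match TAIR10. All 53 genes matched by locus tag. Whether the RefSeq exons match the gene models used for the counts was not checked, so levels per kb and exon overlaps may differ for those models. Levels per kb use exon length, since no protein table was used. Alternatives were DESeq2 1.42.0, limma voom 3.58.1, RLE factors, no low-count filter, fewer libraries and a replicate block.

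Same-numbered icpk KNO3 and WT KNO3 libraries deviated together from their group means over 16836 genes, with correlations of 0.272, 0.141 and 0.387. Pairs of unlike number in these groups ran from -0.288 to 0.104, so the replicate number may pair the libraries. The largest correlation between any groups was of unlike number, however, icpk KNO3 replicate 1 with WT KCl replicate 2 (0.437). As a block, the replicate number ended only the call of NPF5.15 in icpk KNO3 against WT KNO3. With nitrate in the wild type, it ended that of NPF5.6 (adjusted p = 0.0577).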

Additional observations from a re-analysis of the deposited data

How the results depend on the processing

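Each NPF change called with all libraries kept its direction under all alternatives run. Others, not called with all libraries, changed sign under some alternative. Among them, NPF7.2 with nitrate ran between -0.23 and 0.23, NPF4.6 with nitrate between -0.03 and 0.15, and NPF7.3 in icpk against wild type with KNO3 between -0.10 and 0.99. With replicates 1 and 2 of every group alone, 677 genes were called for KNO3 against KCl in wild type (1207 with all libraries), 1408 for icpk against wild type with KNO3 (4599), and 476 for icpk KNO3 against WT KCl (1418). There, 0 NPF genes were lower with nitrate, 2 were higher and 2 lower in icpk against wild type with KNO3, and 1 was lower against WT KCl. Leaving out each library in turn gave 598 to 2077, 2461 to 4403 and 689 to 1512 genes. For NPF genes it gave 0 to 5 lower with nitrate, 2 to 6 higher and 6 to 8 lower in icpk against wild type with KNO3, and 1 to 2 higher and 2 to 5 lower against WT KCl. The largest count with nitrate came without WT KNO3 replicate 2 (2077 genes, 40.7% of them higher, against 59.8% in the full set) and the smallest without WT KNO3 replicate 1 (598 genes, 79.1% higher). On the 6 libraries of the nitrate comparison alone, 1 NPF gene was lower. Against WT KCl, DESeq2 called 5 NPF genes lower. With the replicate block, 2 NPF genes were higher against WT KCl, and 1243 genes were called with nitrate, among them NPF2.11 (0.0322) and not NPF5.6 (0.0577). For replicates 1, 2 and 3 in turn, same-number correlations were -0.0386, 0.22 and 0.373 with nitrate, and -0.284, -0.106 and 0.133 against WT KCl. Replicates 1 and 2 thus showed no steady pairing by number, but the replicate 3 pair was positive in both comparisons. It was also positive between icpk KNO3 and WT KNO3 (0.387). The replicate 3 libraries of all groups carry sample numbers in a block apart from those of replicates 1 and 2. Whether the replicate 3 libraries form a set of their own was not tested. The block with the 6 libraries of icpk KNO3 and WT KNO3, chosen after seeing the data, called 5 NPF genes higher and 8 lower, losing NPF5.15 (0.0512) and adding NPF5.8 (0.0128). With replicates 1 and 2 alone, NPF2.13, NPF7.2 and NPF8.5 lost their calls in icpk against wild type with KNO3 (0.0604, 0.0512 and 0.0812). So did NPF2.4 (0.0684), NPF5.13 (0.103), NPF5.14 (0.166), NPF5.15 (0.291), NPF6.1 (0.161) and NPF6.2 (0.0865), which left NPF2.7, NPF4.3, NPF5.1 and NPF5.6. Against WT KCl, NPF7.2 and NPF2.11 lost theirs (0.089 and 0.123). The causes of these changes were not tested. With replicates 1 and 2 alone, the smaller number of libraries and the absence of replicate 3 cannot be told apart. Depth limits the 11 untested members, which had no test, and scarce members such as NPF5.6.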
